A study of Mus musculus with 7 samples.

Results

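The enzymes that make nucleotides and supply the folate one-carbon units for them were described in regulatory T cells (Treg cells) from mouse melanomas, in sorted populations with high and with low FOXP3. Genes were taken by symbol from a list of 33 enzymes, and 31 of these symbols matched a row among the 57180 genes of the count table. Ctps1 and Adss2 had no row of that name and stayed out of every count. The table holds Ctps and Adss, which RefSeq lists as the same genes under older symbols, and their values are given where the step they catalyse is described.

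Cells were sorted as FOXP3-high or FOXP3-low Treg cells from tumour-infiltrating lymphocytes of Foxp3-Cre-YFP mice, in which Cre recombinase and YFP are expressed from the Foxp3 gene, so that every sample of both groups carries this allele. The sample labels give the genotype as WT, and all mice bore B16-F0 melanoma, a transplantable mouse tumour. Age, treatment, the markers and gates of the sort and any pooling of animals were not given in the sources used here. Gene counts exist for 4 FOXP3-low and 3 FOXP3-high libraries. The labels do not tie the libraries to individual mice, so every p-value measures only how far these samples spread, and that spread may be technical.

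Values below are CPM, the counts of a gene per 1000000 counts after TMM normalization of library size, and a positive log2 fold change means a higher level in FOXP3-high; the standard error (SE) follows each. Adjusted p-values come from edgeR's quasi-likelihood test with Benjamini-Hochberg adjustment over the 15838 genes tested, and a gene is said to have risen or fallen where its adjusted p was under 0.05. Library totals ran from 9048771 to 14546999 counts. Foxp3 followed the labels, with 357 ± 44.3 CPM (SD, n = 4) in the FOXP3-low and 698 ± 95.4 CPM (SD, n = 3) in the FOXP3-high libraries. Of 18 genes of T cell identity 16 were higher in FOXP3-high, and their summed level was 3986 to 4419 CPM in the FOXP3-low and 5373 to 6112 CPM in the FOXP3-high libraries. Markers of other cells also differed: the summed level of 12 macrophage and monocyte genes was 1429 to 1786 CPM in the FOXP3-low and 63.6 to 105 CPM in the FOXP3-high libraries, with 1 of the 12, Ms4a7, at 0 counts in FOXP3-high replicate 2. Genes of dendritic cells and MHC class II (7 of 7 lower, 2314 to 3578 against 168 to 291 CPM) and of neutrophils (4 of 4 tested lower, 679 to 916 against 30.6 to 82.5 CPM) also fell, as did 2 of 3 tested B and plasma cell genes (224 to 383 against 13.7 to 33 CPM). Of 3 tested CD8 T and NK genes 2 fell, Cd8a and Cd8b1 (28.6 to 35.5 against 9.35 to 13.8 CPM over the list). The 7 melanoma genes summed to 1298 to 2344 against 3206 to 4405 CPM. The summed level of 4 fibroblast genes was 426 CPM in FOXP3-low replicate 3 and 48.9 to 72.2 CPM in the other FOXP3-low libraries, and it spread over 172, 18.5 and 289.5 CPM in FOXP3-high. In bulk samples fewer cells of a type and less RNA per cell cannot be told apart.

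A cell obtains nucleotides by building the purine and pyrimidine rings from amino acids, bicarbonate, folate-bound carbon and phosphoribosyl pyrophosphate (PRPP), or by salvage of bases and nucleosides. Ribonucleotide reductase then turns ribonucleotides into the deoxynucleotides that DNA synthesis consumes, and thymidylate synthase uses a folate carbon to make the thymine nucleotide. Activated and dividing T cells are known to raise these pathways, and many of the deoxynucleotide enzymes are made mainly around S phase.

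Most of these enzymes were lower in the FOXP3-high libraries. Of the 31 genes, all of which passed the filter on low counts, 24 fell, 3 rose and 4 did not pass the test. Over all genes tested 46.5% passed, 24.6% as lower and 21.8% as higher, and where the mean level reached 10 CPM or more the shares were 31.3% and 29.3%. The median log2 fold change was -0.78, against 0.01 over all genes. In 12 of the 31 the fall exceeded a log2 fold change of -1, which 10.1% of all genes passed. In all 24 genes that fell, each FOXP3-high library lay below each FOXP3-low library, a pattern seen in 26.8% of all genes, and in the 3 that rose each lay above, a pattern seen in 23.9%. The largest falls were those of the deoxynucleotide and thymidylate enzymes, and the 3 that rose were Rrm2b, Samhd1 and Ctps2.

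**Figure D1:**
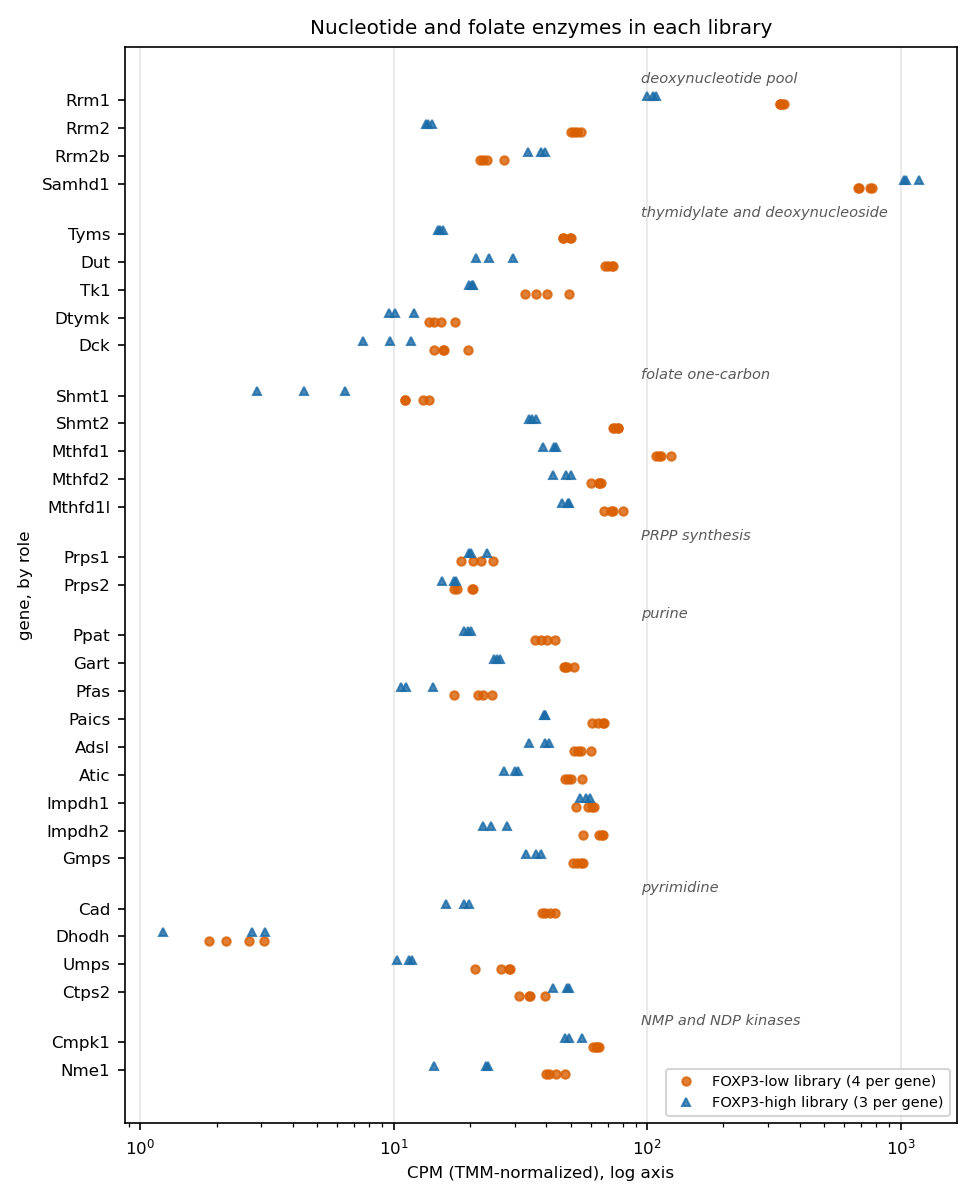
Level of each of the 31 enzymes in each library, as TMM-normalized CPM on a log axis, with 4 FOXP3-low libraries (circles) and 3 FOXP3-high libraries (triangles) per gene, ordered by role. The triangles lie to the left of all circles in 24 genes and to the right in Rrm2b, Samhd1 and Ctps2, and they overlap in Prps1, Prps2, Impdh1 and Dhodh.

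The 24 falls were called under each scaling tried, and 2 of the 3 rises lost their call, though not their sign, under 1 of them. When libraries were scaled to the 18 T cell identity genes instead of by TMM, the median of all genes moved by -0.42. A shift in that direction favours falls over rises, so the falls could hardly lose their calls under it. Under that scaling 27 of the 31 enzymes were lower and 1 was higher, where 47.5% of all genes were lower and 6.19% higher. Samhd1 was the gene still called higher (log2 fold change 0.17, edgeR adjusted p = 0.0236). The 4 not called by TMM included Prps1, Prps2 and Impdh1, which were called lower under the T cell scaling.

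**Figure D2:**
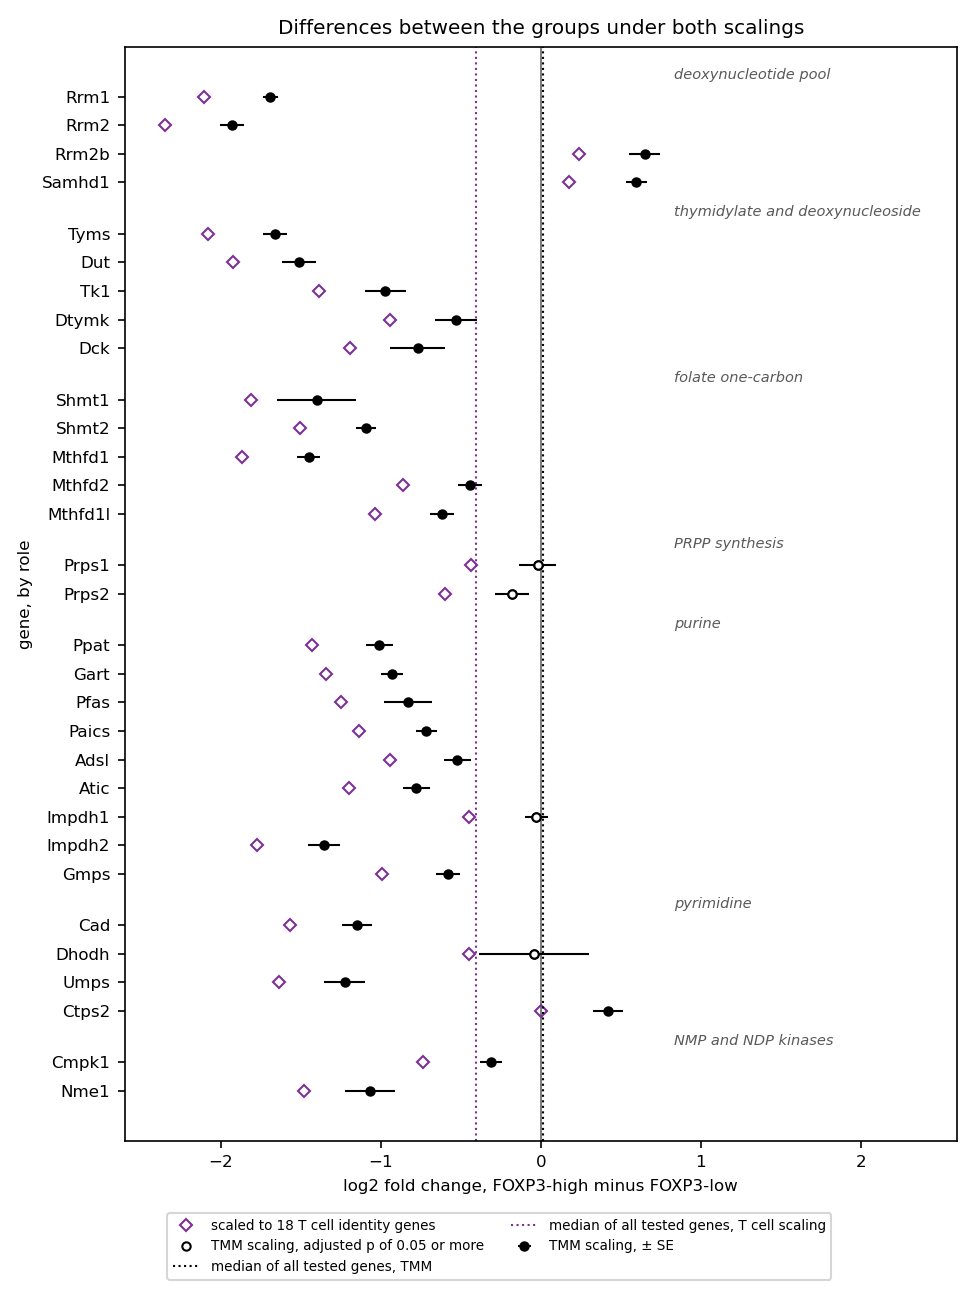
Log2 fold change (FOXP3-high minus FOXP3-low) of each enzyme under TMM (circles with SE bars, open where the adjusted p was 0.05 or more) and after scaling to 18 T cell identity genes (diamonds), with the median of all tested genes under each scaling as a dotted line. The T cell scaling shifts all genes to the left by about the same amount, and Rrm1, Rrm2, Tyms, Dut, Mthfd1 and Impdh2 lie far below the median of all genes under both.

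Ribonucleotide reductase is built from a large catalytic subunit, encoded by Rrm1, and a small radical-bearing subunit, encoded by Rrm2 in dividing cells and by the p53-induced Rrm2b in resting or damaged cells. Rrm1 (ENSMUSG00000030978, chromosome 7, 102090902 to 102117889, plus strand, GRCm39) was at 339.7, 335, 334 and 347 CPM in the FOXP3-low libraries and at 106, 100.3 and 108 CPM in FOXP3-high. The FOXP3-low libraries lay within a narrow band, 3.23-fold above the FOXP3-high ones, and the log2 fold change was -1.69 ± 0.0469 (edgeR adjusted p = 6.07e-08). Rrm2 (ENSMUSG00000020649, chromosome 12, 24758240 to 24763340, plus strand) was at 51.4, 50.2, 54.9 and 53 CPM in FOXP3-low and at 13.7, 13.4 and 14.2 CPM in FOXP3-high. This was the largest fall among the enzymes, 3.81-fold (log2 fold change -1.93 ± 0.0739, edgeR adjusted p = 1.84e-07).

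Rrm2b moved the other way. Rrm2b (ENSMUSG00000022292, chromosome 15, 37924196 to 37961562, minus strand) was at 21.9, 22.5, 23.3 and 27.2 CPM in FOXP3-low and at 38.2, 33.8 and 39.4 CPM in FOXP3-high. All FOXP3-high libraries were higher (log2 fold change 0.65 ± 0.0971, edgeR adjusted p = 4.62e-04), and under T cell identity scaling it no longer passed (0.24, adjusted p = 0.122). Its reads are uncertain, since its gene model overlaps Gm3362 on the same strand, at 10.1 and 8.93 CPM, and Gm49085 on the opposite strand, at 13.4 and 22.3 CPM in FOXP3-low and FOXP3-high. Within a library, which removes the scaling, the ratio of Rrm2 to Rrm2b in reads per kilobase and 1000000 counts (RPKM, CPM divided by the deposited gene length) was 7.76, 7.37, 7.75 and 6.43 in FOXP3-low and 1.18, 1.3 and 1.18 in FOXP3-high. Per deposited length, Rrm2 was thus in clear excess over Rrm2b in FOXP3-low and close to it in FOXP3-high. That length spans all exons, 2771 bases for Rrm2 and 9134 for Rrm2b, and the comparison of levels depends on it. In CPM, without division by length, Rrm2b was above Rrm2 in FOXP3-high (37.2 against 13.7) and below it in FOXP3-low (23.7 against 52.4).

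Samhd1 encodes the phosphohydrolase that breaks deoxynucleoside triphosphates down and restricts retroviruses in resting T cells and myeloid cells. It was the most abundant of the 31 enzymes per length, at 79 ± 5.32 RPKM (SD, n = 4) in FOXP3-low. Samhd1 (ENSMUSG00000027639, chromosome 2, 156939453 to 156977185, minus strand) was at 759, 770.0, 683 and 678 CPM in FOXP3-low and at 1055, 1185 and 1037 CPM in FOXP3-high. The groups did not overlap, and the log2 fold change was 0.60 ± 0.0653 (edgeR adjusted p = 6.32e-05). Macrophages are known to express Samhd1, and all 12 macrophage genes were lower in the same FOXP3-high libraries; their part in its value was not tested.

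The upstream sequences of both falling reductase genes are shown because their transcripts fell together with those of thymidylate synthase. They are the 250 bases before the RefSeq start site in GRCm38.p6: Rrm1 (chr7:102441445-102441694, plus strand), Rrm2 (chr12:24708004-24708253, plus strand) and Tyms (chr5:30073626-30073875, minus strand). Capitals mark the letters CCAAT, the CCAAT box bound by NF-Y, in Rrm1 and Rrm2, and CACGTG, the E-box bound by MYC and related factors, in Tyms.
Rrm1: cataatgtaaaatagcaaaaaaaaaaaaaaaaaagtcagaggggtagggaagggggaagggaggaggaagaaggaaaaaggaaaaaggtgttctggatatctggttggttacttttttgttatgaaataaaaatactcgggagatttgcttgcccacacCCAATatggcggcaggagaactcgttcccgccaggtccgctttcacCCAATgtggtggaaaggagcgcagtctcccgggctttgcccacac
Rrm2: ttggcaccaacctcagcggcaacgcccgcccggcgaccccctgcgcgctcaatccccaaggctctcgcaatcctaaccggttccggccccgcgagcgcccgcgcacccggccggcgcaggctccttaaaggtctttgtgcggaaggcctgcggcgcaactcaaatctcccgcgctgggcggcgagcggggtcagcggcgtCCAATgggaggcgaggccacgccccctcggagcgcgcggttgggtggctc
Tyms: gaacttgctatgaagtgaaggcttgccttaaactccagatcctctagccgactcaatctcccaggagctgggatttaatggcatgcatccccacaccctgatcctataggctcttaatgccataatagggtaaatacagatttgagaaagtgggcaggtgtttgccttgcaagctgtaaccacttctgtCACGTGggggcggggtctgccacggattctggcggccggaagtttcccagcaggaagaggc
The CCAAT boxes of Rrm1 began 91 and 45 bases before the start site and that of Rrm2 50 bases before it, and the E-box of Tyms began 61 bases before it. A match is a description of the letters and not a bound site.

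Tyms encodes thymidylate synthase, which methylates dUMP to dTMP with a folate carbon. Tyms (ENSMUSG00000025747, chromosome 5, 30263200 to 30278550, minus strand) was at 49.8, 46.6, 46.5 and 50.2 CPM in FOXP3-low and at 15.2, 15.7 and 14.9 CPM in FOXP3-high, a log2 fold change of -1.66 ± 0.0736 (edgeR adjusted p = 3.24e-07). Dut, the dUTPase that supplies dUMP and keeps uracil out of DNA, was at 68.2, 72.9, 70.0 and 73 CPM in FOXP3-low and at 23.8, 21.2 and 29.6 CPM in FOXP3-high. Its fall of 2.85-fold (log2 fold change -1.51 ± 0.108, edgeR adjusted p = 4.32e-06) was close to that of Tyms, and its transcript was the highest per length of the thymidylate and deoxynucleoside group in FOXP3-low, at 29.5 RPKM.

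The salvage kinases of this group fell less. Tk1, the cytosolic thymidine kinase of S phase, went from 39.7 ± 6.9 to 20.2 ± 0.415 CPM (SD, n = 4 and 3), 1.96-fold lower. Dck, which phosphorylates deoxycytidine, went from 16.4 ± 2.3 to 9.62 ± 2.07 CPM, 1.71-fold lower. Dtymk, the thymidylate kinase used by both routes, went from 15.3 ± 1.6 to 10.6 ± 1.26 CPM, 1.44-fold lower. All 5 genes of the group fell, where 24.6% of all genes did, with edgeR adjusted p-values of at most 0.00845. Tk1 overlaps Gm20708 on the opposite strand, which was at 18.6 and 18.5 CPM. The ratio of Tyms to Tk1 in RPKM ran from 0.873 to 1.29 in FOXP3-low and, without overlap, from 0.619 to 0.658 in FOXP3-high.

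Folate one-carbon enzymes pass a carbon from serine to tetrahydrofolate in mitochondria (Shmt2, Mthfd2, Mthfd1l) and in the cytosol (Shmt1, Mthfd1), where purine and thymidylate synthesis use it. All 5 fell, where 24.6% of all genes did, with a median log2 fold change of -1.09. Mthfd1, the trifunctional cytosolic enzyme (ENSMUSG00000021048, chromosome 12, 76302072 to 76366577, plus strand), was at 124, 113, 111 and 109 CPM in FOXP3-low and at 43.1, 38.7 and 43.5 CPM in FOXP3-high. It fell 2.74-fold (log2 fold change -1.45 ± 0.073, edgeR adjusted p = 6.41e-07). Shmt2, the mitochondrial serine hydroxymethyltransferase (ENSMUSG00000025403, chromosome 10, 127352992 to 127358271, minus strand), was at 73.1, 74.3, 76.6 and 76.6 CPM in FOXP3-low and at 35.3, 34.1 and 36.5 CPM in FOXP3-high. This was a fall of 2.13-fold (log2 fold change -1.09 ± 0.0613, edgeR adjusted p = 1.10e-06).

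Later steps of the mitochondrial branch fell less than the cytosolic enzymes in point estimate. Mthfd2, the mitochondrial dehydrogenase and cyclohydrolase, went from 63.7 ± 2.55 to 46.8 ± 3.88 CPM (log2 fold change -0.44 ± 0.0746). Mthfd1l, the mitochondrial formate-releasing synthetase, went from 73.6 ± 5.33 to 48 ± 1.59 CPM (-0.62 ± 0.0735). Shmt1, the cytosolic hydroxymethyltransferase, was low in all libraries and went from 12.3 ± 1.39 to 4.59 ± 1.78 CPM (-1.40 ± 0.244). Shmt1 overlaps Smcr8 on the opposite strand, whose level of 40 and 47.6 CPM was several times its own. The ratio of Mthfd2 to Mthfd1 in RPKM was 0.659, 0.742, 0.740 and 0.704 in FOXP3-low and 1.48, 1.4 and 1.4 in FOXP3-high, so that the more abundant of the pair per length changed from Mthfd1 to Mthfd2. The ratio of Shmt2 to Shmt1 overlapped between the groups, with 6.71 to 8.67 for FOXP3-low and 6.83 to 14.7 for FOXP3-high.

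PRPP synthetases make the ribose donor of purine, pyrimidine and salvage reactions, and neither of their genes passed the test by TMM. Prps1 was at 18.4, 22.1, 20.5 and 24.7 CPM in FOXP3-low and at 20.2, 23.3 and 19.9 CPM in FOXP3-high (log2 fold change -0.02 ± 0.116, edgeR adjusted p = 0.903). The sign of that value turned under several alternatives. Prps2 was at 20.6, 20.4, 17.7 and 17.2 CPM in FOXP3-low and at 17.6, 17.3 and 15.5 CPM in FOXP3-high (-0.18 ± 0.105, edgeR adjusted p = 0.199). The libraries of both groups overlapped for either gene. With T cell identity scaling Prps1 (-0.44) and Prps2 (-0.60) were called lower, close to the median of all genes under that scaling, -0.41. Prps1l3, an expressed gene 95.3% identical to Prps1 over 319 bases of transcript, was at 21.7 and 22.7 CPM, so reads of this pair may have been shared.

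De novo purine synthesis builds IMP on PRPP and then branches to AMP and GMP. Of its 9 genes 8 fell (88.9%, against 24.6% of all genes), with a median log2 fold change of -0.78. Gart, which carries several early activities including a folate-dependent transfer, was at 47.5, 51.7, 47.2 and 48.4 CPM in FOXP3-low and at 26.2, 24.8 and 25.6 CPM in FOXP3-high. The log2 fold change of Gart was -0.93 ± 0.0698 (edgeR adjusted p = 5.61e-06), and it overlaps Gm15964 on the opposite strand at 5.63 and 2.29 CPM. Ppat, the committed amidotransferase, fell 2.01-fold from 39.4 ± 3.12 to 19.6 ± 0.597 CPM. Paics, which acts in the middle of the pathway, fell 1.64-fold from 64.8 ± 3.29 to 39.4 ± 0.325 CPM.

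Pfas, an amidotransferase that acts before the Paics steps, fell 1.78-fold to 12 ± 1.95 CPM. Atic, whose first activity takes a second folate carbon and whose other activity closes the ring, fell 1.71-fold to 29.4 ± 1.89 CPM. Adsl, adenylosuccinate lyase, fell 1.44-fold to 38.2 ± 3.47 CPM, and it serves both the common route and the AMP branch. The edgeR adjusted p-values of the 8 purine genes that fell were at most 0.00137. Across the steps to IMP the falls therefore lay between 1.44-fold and 2.01-fold, smaller than those of Rrm1, Rrm2, Tyms and Dut.

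Ppat and Paics lie on opposite strands, with RefSeq start sites 276 bases apart, and their deposited gene models overlap at these ends. Their upstream sequences are shown because these neighbouring genes both fell; the windows lie on either side of the overlap and do not share bases. The windows are the 250 bases before each start in GRCm38.p6, for Ppat chr5:76951579-76951828, minus strand and for Paics chr5:76951052-76951301, plus strand. Capitals in Ppat mark GCGGGAAA, the reverse complement of the E2F core TTTCCCGC, and capitals in Paics mark the E-box CACGTG and a CCAAT box.
Ppat: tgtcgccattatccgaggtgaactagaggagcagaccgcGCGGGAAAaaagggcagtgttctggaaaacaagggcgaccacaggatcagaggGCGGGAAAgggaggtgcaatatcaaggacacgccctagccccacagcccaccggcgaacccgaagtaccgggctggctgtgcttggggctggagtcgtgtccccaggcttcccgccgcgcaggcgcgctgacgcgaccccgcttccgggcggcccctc
Paics: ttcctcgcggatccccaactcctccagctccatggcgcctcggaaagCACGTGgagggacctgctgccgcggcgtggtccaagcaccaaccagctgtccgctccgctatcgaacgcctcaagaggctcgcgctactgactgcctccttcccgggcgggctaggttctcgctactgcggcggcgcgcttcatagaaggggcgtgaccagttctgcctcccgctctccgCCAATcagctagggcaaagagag
The E2F cores of Ppat began 211 and 158 bases before its start, and in Paics the E-box began 203 and the CCAAT box 23 bases before its start.

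The IMP dehydrogenase genes of the GMP branch differed from each other. IMP dehydrogenase, the rate-limiting enzyme of guanine nucleotide synthesis, is encoded by Impdh1, expressed at a steady level in many cells, and Impdh2, which is raised in proliferating cells. Impdh2 (ENSMUSG00000062867, chromosome 9, 108437485 to 108442783, plus strand) was at 66.6, 56, 64.7 and 67.3 CPM in FOXP3-low and at 22.5, 24.2 and 27.9 CPM in FOXP3-high (log2 fold change -1.36 ± 0.0999, edgeR adjusted p = 5.02e-06). Impdh1 (ENSMUSG00000003500, chromosome 6, 29200433 to 29216276, minus strand) was at 61.7, 58.3, 60.4 and 52.4 CPM in FOXP3-low and at 59.5, 57.2 and 54.5 CPM in FOXP3-high (-0.03 ± 0.0744, edgeR adjusted p = 0.792). The libraries of Impdh2 separated fully while those of Impdh1 overlapped, and the ratio of Impdh2 to Impdh1 in RPKM lay between 1.03 and 1.37 in FOXP3-low and between 0.405 and 0.548 in FOXP3-high. Impdh2-ps, 99.7% identical to Impdh2 over 1545 bases, held 4.81% as many counts as Impdh2. Gmps, which makes GMP from XMP, fell 1.49-fold to 35.9 ± 2.47 CPM. Adss, the older symbol of Adss2 and the enzyme that opens the AMP branch, did not pass the test, at 158 ± 7.98 and 146 ± 11.8 CPM (-0.12 ± 0.0659, edgeR adjusted p = 0.176).

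The upstream sequence of Impdh2 is shown as the falling member of that pair, 250 bases before the RefSeq start in GRCm38.p6 (chr9:108560186-108560435, plus strand), with its E-box CACGTG in capitals, beginning 110 bases before the start.
Impdh2: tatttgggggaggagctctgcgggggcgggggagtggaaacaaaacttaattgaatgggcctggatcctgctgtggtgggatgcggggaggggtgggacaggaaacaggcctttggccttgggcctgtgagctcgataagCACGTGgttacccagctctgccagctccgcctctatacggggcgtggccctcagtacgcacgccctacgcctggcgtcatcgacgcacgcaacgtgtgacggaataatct
RefSeq promoter windows of 300 bases (250 before to 50 after a start site) were found for 28 of the 31 genes, in 32 windows. On both strands, CACGTG was in 7 of the 32 windows, 21.9%, against 7.15% of all 32851 windows, in Atic, Dtymk, Impdh2, Nme1, Paics and Tyms. CCAAT was in 37.5% of the windows against 37.4% of all. The E2F core, searched as TTTGGCGC, TTTCCCGC, TTTGCCGC and TTTCGCGC, was in 2 windows (Ppat and Prps2), 6.25% against 2.26%, and TGATGNAA, the composite element bound by ATF4, was in 1 (Prps1) against 3.97%. No motif searched contains another, although their positions may overlap. The windows of these enzymes had a mean GC content of 60.4% against 53.8% over all windows, and the part of base composition in these shares was not tested.

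De novo pyrimidine synthesis starts with the trifunctional enzyme CAD, passes through the mitochondrial DHODH and ends at UMP with UMPS, after which CTP synthetase makes CTP. Cad was at 43.5, 38.4, 41.3 and 39.6 CPM in FOXP3-low and at 18.9, 16.1 and 19.8 CPM in FOXP3-high. Its log2 fold change was -1.15 ± 0.0922 (edgeR adjusted p = 8.52e-06). Umps was at 26.4, 28.6, 21 and 28.7 CPM in FOXP3-low and at 10.3, 11.5 and 11.8 CPM in FOXP3-high (-1.23 ± 0.13, edgeR adjusted p = 5.04e-05). Both entry and exit of the route to UMP thus fell more than 2-fold, and Umps overlaps Gm15829 on the opposite strand at 3.67 and 1.8 CPM.

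Dhodh, between them, was near the limit of what these libraries resolve. It was at 2.68, 1.87, 3.08 and 2.18 CPM in FOXP3-low and at 2.75, 1.22 and 3.11 CPM in FOXP3-high, which is 11 to 44 counts per library. The log2 fold change of -0.04 ± 0.342 (edgeR adjusted p = 0.93) turned positive without FOXP3-high replicate 2, at 0.28, so a change of moderate size was not detectable at this depth.

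The CTP synthetase genes went in opposite directions. Ctps2 (ENSMUSG00000031360, chromosome X, 161684234 to 161815497, plus strand) was at 31.2, 39.6, 34.5 and 34.2 CPM in FOXP3-low and at 42.6, 48.4 and 49.1 CPM in FOXP3-high, a rise of 1.34-fold (log2 fold change 0.42 ± 0.0947, edgeR adjusted p = 0.00512). With T cell identity scaling its log2 fold change was 0.00 (adjusted p = 0.981). Ctps, the older symbol of Ctps1, the form that activated lymphocytes depend on, was at 31, 24.9, 30.8 and 28 CPM in FOXP3-low and at 14.6, 10.9 and 14 CPM in FOXP3-high (-1.12 ± 0.126, edgeR adjusted p = 7.68e-05). In RPKM the ratio of Ctps to Ctps2 lay between 0.894 and 1.41 in FOXP3-low and between 0.321 and 0.489 in FOXP3-high.

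Cmpk1 and Nme1 encode kinases that raise nucleoside monophosphates and diphosphates to the next level. Cmpk1, the UMP and CMP kinase, was at 62.7, 63.3, 64.5 and 61.2 CPM in FOXP3-low and at 47.6, 55.3 and 49.4 CPM in FOXP3-high. This was the smallest fall among the 24 (log2 fold change -0.31 ± 0.0695, edgeR adjusted p = 0.00491). Nme1, a nucleoside diphosphate kinase, was at 43.6, 39.9, 47.2 and 41.2 CPM in FOXP3-low and at 23.6, 14.5 and 23.1 CPM in FOXP3-high (-1.07 ± 0.156, edgeR adjusted p = 4.03e-04), with FOXP3-high replicate 2 below the other 2. Nme1 overlaps Gm20390 on the same strand, at 82.4 and 40.5 CPM, so its reads were not separated with certainty.

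Ratios of paired enzymes within a library do not depend on library scaling, and 8 pairs were compared. In 6 pairs the groups did not overlap: Rrm2 to Rrm2b, Ctps to Ctps2, Impdh2 to Impdh1, Mthfd2 to Mthfd1, Rrm2 to Rrm1 and Tyms to Tk1. Of all single genes 26.8% separated as lower and 23.9% as higher in FOXP3-high. For Rrm2 to Rrm2b and for Ctps to Ctps2 the single genes separated in opposite directions, so their ratios had to separate and add no further evidence. The share for ratios of other gene pairs was not computed, so the count of 6 has no direct background. The mean log2 ratio differed most for Rrm2 to Rrm2b, at 2.87 ± 0.128 (SD, n = 4) in FOXP3-low and 0.29 ± 0.0803 (SD, n = 3) in FOXP3-high. The subunit ratio Rrm2 to Rrm1 differed least among the 6, at -0.70 ± 0.0608 and -0.94 ± 0.0229. Each of the 6 gave the smallest p this design allows, 0.0571 (two-sided exact permutation test over 35 assignments of the libraries, adjusted p = 0.0762 over the 8 pairs), so none could pass 0.05. Prps2 to Prps1 gave p = 0.514 and Shmt2 to Shmt1 p = 0.286 in the same exact permutation test.

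**Figure D3:**
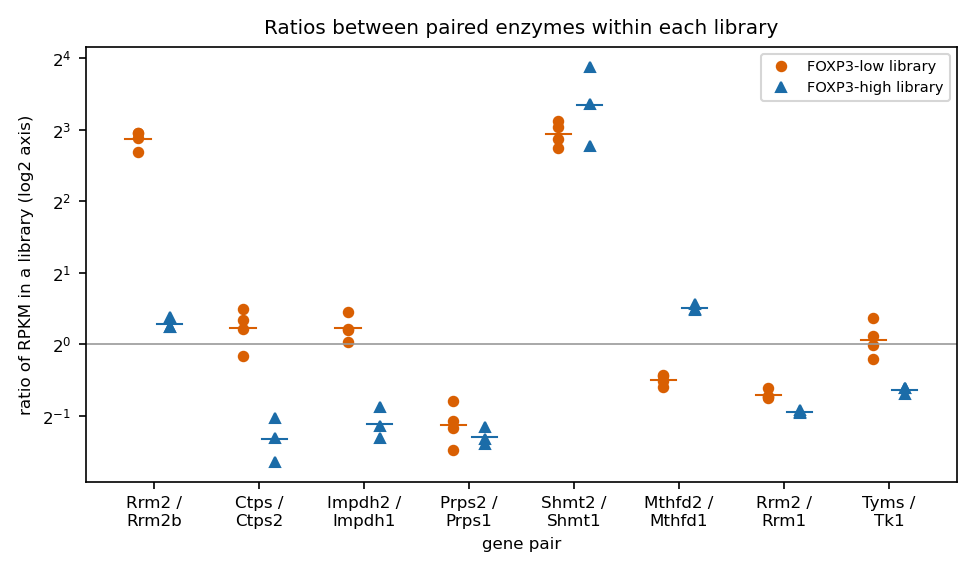
Ratio of RPKM between paired enzymes within each library, on a log2 axis, for 4 FOXP3-low (circles) and 3 FOXP3-high libraries (triangles), with short lines at the geometric means. The groups separate in 6 of the 8 pairs, most widely in Rrm2 to Rrm2b (7.31 against 1.22), and overlap in Prps2 to Prps1 and Shmt2 to Shmt1. For Rrm2 to Rrm2b and Ctps to Ctps2 the separation follows from that of the single genes. The share for other gene pairs was not computed.

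Other genes of these pathways moved less uniformly. These 77 were taken from general knowledge of salvage, folate and serine metabolism, kinases, breakdown and transport. Like the enzymes, they were listed with earlier results of these data known. Of the 69 that passed the low-count filter, 29 fell, 7 rose and 33 did not pass, with a median log2 fold change of -0.25. Under T cell identity scaling 41 were lower and 2, Adk and Tk2, higher, where 47.5% and 6.19% of all genes were. By TMM the share that fell was 42%, against 77.4% of the 31 synthesis enzymes and 24.6% of all genes, and the share that rose was 10.1%, against 21.8% of all genes.

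In the folate and serine list 8 of 19 fell and 2 rose, 42.1% and 10.5%, against 24.6% and 21.8% of all genes. Phgdh and Psat1, the first enzymes of serine synthesis from glycolysis, fell 2.81-fold each, to 44.6 ± 2.62 and 9.4 ± 1.29 CPM. The genes that rose were the formyl-tetrahydrofolate dehydrogenases, which release the one-carbon unit as carbon dioxide: Aldh1l1 from 4.4 ± 1 to 7.86 ± 0.646 CPM and Aldh1l2 from 8.76 ± 2.3 to 16 ± 3.88 CPM. Without FOXP3-high replicate 1 the call of Aldh1l2 was lost (log2 fold change 0.67, edgeR adjusted p = 0.0765). Neither rise was called with T cell identity scaling (adjusted p = 0.164 and 0.134), and Aldh1l2 overlaps Nopchap1 on the opposite strand.

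In the salvage list 6 of 15 fell and 2 rose, 40% and 13.3%, against 24.6% and 21.8% of all genes. Adk, adenosine kinase, rose 1.81-fold from 17.4 ± 0.95 to 31.5 ± 4.04 CPM. Tk2, the mitochondrial thymidine kinase, rose 1.9-fold from 13.3 ± 1.07 to 25.3 ± 2.16 CPM, where the S phase kinase Tk1 fell. Both stayed called under T cell identity scaling (edgeR adjusted p = 0.00488 and 0.00414). Hprt, which salvages hypoxanthine and guanine, fell 1.51-fold to 101 ± 3.19 CPM, and Uck2, the uridine-cytidine kinase of proliferating cells, fell 2.58-fold to 12.9 ± 1.05 CPM. Upp1, uridine phosphorylase, was at 34.7 to 39.5 CPM in FOXP3-low and at 3.87, 2.34 and 8.59 CPM in FOXP3-high.

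Among breakdown and sanitizing genes 9 of 17 (52.9%) fell and none rose, against 24.6% and 21.8% of all genes. Of these, 1 fell as steeply as Upp1. Gda, guanine deaminase, was at 150.1, 143, 146 and 125 CPM in FOXP3-low and at 15.3, 9.46 and 27.5 CPM in FOXP3-high (log2 fold change -3.01 ± 0.281, edgeR adjusted p = 2.24e-05). Among the FOXP3-high libraries Upp1 and Gda were both highest in replicate 3 and lowest in replicate 2. The same order held for the summed genes of macrophages (85.6, 63.6 and 105 CPM in replicates 1, 2 and 3), neutrophils (31.3, 30.6 and 82.5 CPM), dendritic cells and MHC class II (239, 168 and 291 CPM) and G2 and M phase (1246, 1054 and 1317 CPM), and for the fibroblast and endothelial genes. It also held for the CD8 T and NK genes. The order did not hold for the summed S phase genes (728, 752 and 779 CPM) or T cell identity genes (5601, 6112 and 5373 CPM). Nor did it hold for the B and plasma cell (33, 18.1 and 13.7 CPM), melanoma (4405, 3206 and 3902 CPM) or Treg genes. The part of any of these lists in the fall of Upp1 and Gda was not tested. Xdh, xanthine dehydrogenase, fell 2.01-fold to 93.7 ± 4.21 CPM, and Nt5c2, a cytosolic nucleotidase, 1.44-fold to 19.6 ± 0.148 CPM.

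Of 12 other nucleotide kinases 3 fell, which at 25% is near the 24.6% of all genes, and 1 rose. Nme2 fell 1.98-fold to 21.8 ± 1.42 CPM and shares the overlap of Nme1 with Gm20390. Ak6 fell 1.47-fold and overlaps Taf9 on the same strand. Ak1 rose from 1.28 ± 0.401 to 2.64 ± 0.393 CPM, a low level. Its call was lost without FOXP3-high replicate 3 (edgeR adjusted p = 0.0777) and under T cell identity scaling (edgeR adjusted p = 0.122). It was also lost without both libraries numbered 3 (edgeR adjusted p = 0.119) and with no low-count filter (edgeR adjusted p = 0.0527).

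Adssl1, the paralog of Adss known from muscle, fell 4.39-fold from 28.9 ± 2.27 to 6.59 ± 1.69 CPM, which is a log2 fold change of -2.13 ± 0.165 (edgeR adjusted p = 6.80e-06), while Adss itself did not pass the test. Adssl1 overlaps Gm56551 on the opposite strand. Prpsap1, a regulatory partner of the PRPP synthetases, rose from 22.6 ± 2.18 to 27.7 ± 1.9 CPM (0.29 ± 0.0966 on the log2 scale, edgeR adjusted p = 0.0329). That call was lost without FOXP3-low replicate 1, 2 or 3 and without FOXP3-high replicate 1 or 3 (edgeR adjusted p = 0.0585 to 0.14). DESeq2 did not call it either (adjusted p = 0.0546). It was also lost without both libraries numbered 3 (edgeR adjusted p = 0.188) and with no low-count filter (edgeR adjusted p = 0.112). Of the nucleoside transporters, the concentrative Slc28a2 rose 1.48-fold to 110.3 ± 7.98 CPM, a call lost under T cell identity scaling (log2 fold change 0.15, adjusted p = 0.0722). The equilibrative transporters Slc29a1 and Slc29a3 fell 1.42-fold and 1.72-fold. The Slc29a1 call was lost without FOXP3-low replicate 2 or 4 and without FOXP3-high replicate 2 or 3 (edgeR adjusted p = 0.0507 to 0.0689). Without both libraries numbered 3 it was lost as well (edgeR adjusted p = 0.0753).

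The replication and cell division genes, which are no members of the list, give the frame for these values. These lists too were chosen with earlier results of these data known. Of 23 S phase genes such as the helicase subunit Mcm3, 22 fell, with a median log2 fold change of -1.51 and a summed level of 2193 to 2299.9 CPM in the FOXP3-low and 728 to 779 CPM in the FOXP3-high libraries. All 13 G2 and M phase genes fell, with a median of -2.21. Over all genes tested 24.6% fell and 21.8% rose. Rrm1, Rrm2 and Tyms, at -1.93 to -1.66, lay below the median of the S phase genes, Dut lay at it (-1.51), and the purine enzymes, at -1.36 to -0.03, lay above it. The part of the share of dividing cells in the fall of the enzymes was not tested. The macrophage genes (12 of 12, median -4.33) and dendritic and MHC class II genes (7 of 7, median -3.55) fell in the same libraries. The neutrophil genes (4 of 4, median -4.22) fell there too. So did 2 of 3 tested B and plasma cell genes and 2 of 3 tested CD8 T and NK genes. The melanoma genes rose (7 of 7, median 1.10), and the parts of all these lists in the enzyme values were not tested either.

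**Figure D4:**
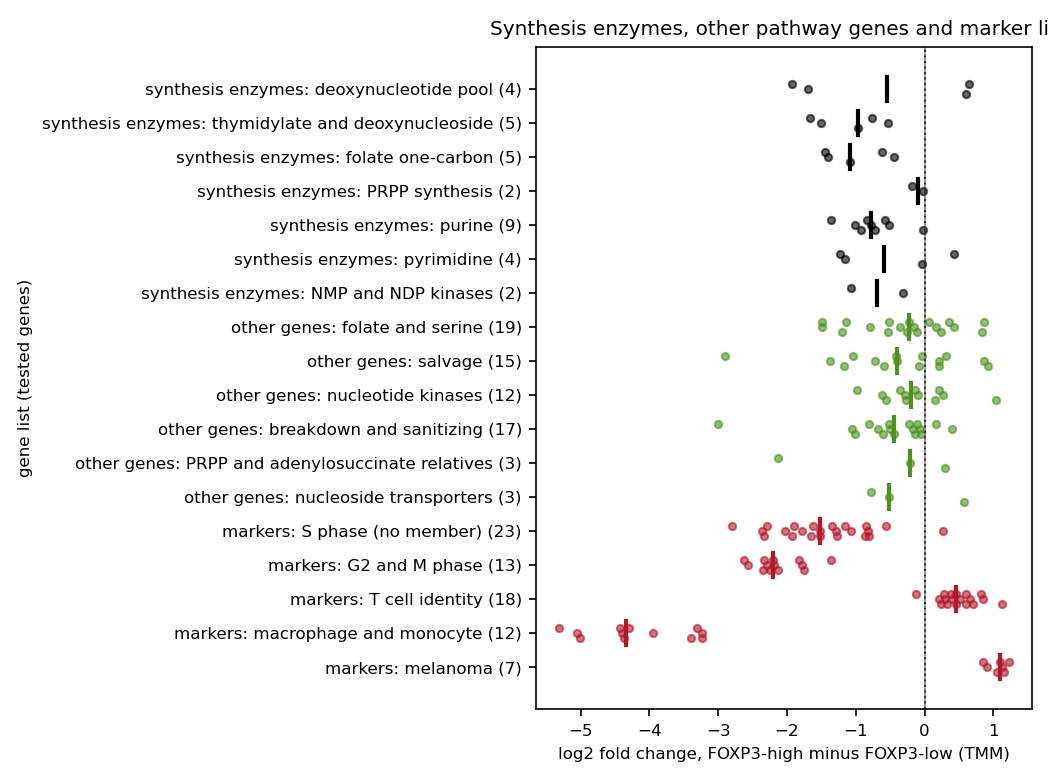
Log2 fold change (FOXP3-high minus FOXP3-low, TMM) of each tested gene in the synthesis enzymes by role (black), the other pathway genes (green) and marker lists (red), with bars at the medians, the number of tested genes in brackets and a dotted line at the median of all genes. Medians of the synthesis roles lie between -1.09 and -0.10, those of the other pathway lists between -0.51 and -0.20, and those of S phase and of G2 and M phase genes at -1.51 and -2.21.

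Leaving out any single library, or both libraries numbered 3, left 24 of the synthesis enzymes called lower and 3 called higher.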

How the data were processed

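Bulk RNA was measured in 4 FOXP3-low and 3 FOXP3-high libraries. Per the labels' protocols, 100 to 200 ng of RNA from a TRIzol extraction went into a stranded mRNA library kit. The submitters' processing notes name featureCounts, STAR 2.5.3a and fastp 0.23.4, with GRCm39 and GRCh38 as builds; coordinates of genes are the deposited ones, given as GRCm39. The authors deposited whole-number counts per gene without normalization, in 1 table of 57180 genes. The gene length in bases was also deposited by the authors, and it spans all exons of a gene, so RPKM understates genes with many transcript forms, such as Rrm1 with 11012 bases. The strand setting, the handling of shared reads and any collapsing of duplicates were not given in the sources used here, so overlapping genes with at least 10% as many counts, and genes at least 95% identical over 200 bases or more (BLAST 2.17.0, GENCODE transcripts), are named as uncertain. The unmapped columns of sample values numbered 0.

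Groups came from the sample titles. The main test used edgeR 4.0.16 under R 4.3.3 (filterByExpr with a minimum count of 10 and total of 15, which left 15838 genes; TMM; glmQLFit and glmQLFTest over all 7 libraries without a block). Each SE was derived from the fold change and the F statistic. Library totals were 9048771 to 14546999 counts. Replicates differed by more than counting noise in each pair (chi-square per gene 3.98 to 12.2). Ratios were tested with scipy 1.17.1. Alternatives were other size factors, T cell identity scaling (18 genes), other count filters, DESeq2 1.42.0, limma-voom (limma 3.58.1), leaving out libraries and a replicate block. The edgeR step was tested on simulated data. The enzymes and all lists were chosen with earlier results of these data known. Genes given library by library were the 2 of smallest adjusted p in each role, the most abundant per length, and those that rose or did not pass; other pathway genes were up to 3 per list and direction with the smallest adjusted p, except that some are not reported here. Genes named beside these are overlapping genes or were named after their values were seen. Promoter sequences are RefSeq's (GRCm38.p6), matched by symbol.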

Additional observations from a re-analysis of the deposited data

How the results depend on the processing

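With the replicate number as a block, 24 enzymes were lower and 3 higher, as without it, and for the other pathway genes no count moved by more than 1.5 times. Deviations of same-numbered libraries from their group means correlated at -0.10, 0.10 and 0.53, and those of different-numbered libraries at -0.55 to 0.34. The highest value, 0.53, was that of the libraries numbered 3, and whether these share an origin cannot be told from the labels. The other same-numbered values were low, and the numbers were not taken to pair the samples. Leaving out 1 library at a time gave 24 lower and 3 higher each time. Of the 31 enzymes 25 kept direction and call in all 17 alternatives. T cell identity scaling left 1 enzyme higher, and 2 of the other pathway genes higher in place of 7. It ended the calls of Rrm2b (0.24) and Ctps2 (0.00), and it turned Prpsap1 to -0.12.

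Genes near 0 turned sign without passing the test. With upper quartile factors Prps1 was at 0.0285, Impdh1 at 0.0219 and Dhodh at 0.00883 (log2), and with total counts only at 0.0463, 0.0409 and 0.0328. With the replicate block Prps1 was at 0.0565, and without both libraries numbered 3 Impdh1 was at 0.0232. Leaving out 1 library at a time put Prps1 between -0.0692 and 0.0726, Impdh1 between -0.0849 and 0.0187 and Dhodh between -0.282 and 0.278. The cause was not tested. With at least 50 counts required in each of 3 libraries Dhodh was not tested. Depth limits the values of Dhodh, at 11 to 44 counts a library, and of Ak1, at 11 to 32.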
